A study of Mus musculus with 2 samples.

Results

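In splenic B cells, 2674 of the 47542 DNase I hypersensitive sites (DHS) in the deposited list, or 5.62%, lay over a promoter that is poor in CpG dinucleotides. A promoter was called CpG-poor when the 1000 bp around the transcription start site (TSS) of a protein-coding gene had a GC content under 55% or an observed to expected CpG ratio under 0.6. A DHS was kept when it covered such a TSS on chromosomes 1 to 19, covered no CpG-rich protein-coding TSS, and covered no TSS of a divergent pair, in which 2 opposite-strand genes start head to head within 1 kb of each other. Of 2974 DHS over a CpG-poor TSS, 150 were dropped for a CpG-rich TSS and 150 for a divergent pair. The 2674 that remained covered 2748 CpG-poor TSSs, with 2601 of them over a single one.

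The cells came from the spleens of C57/Bl6 mice, 8 weeks old and Trp53+/+, whose treatment is given as mock. They were taken with magnetic beads against B220, a surface marker of B cells, and apoptotic cells were removed on a Ficoll gradient. DNase I, which cuts open DNA more readily than DNA wrapped in nucleosomes, was used at several concentrations, and qPCR served to choose which digest went on to sequencing. The series holds 1 DNaseI library and 1 input library of the same strain, genotype and treatment, without replicates, and the read depth is unknown. All comparisons below are therefore within 1 list, intervals are at the 95% level and cover counting error only, and a promoter without a DHS is one where none was called.

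CpG-rich promoters belong mostly to genes used by many cell types and tend to be open in all of them. CpG-poor promoters are the usual form at genes of a specialised cell type, where DNA methylation and the choice of transcription factors restrict their use. In B cells the genes of the B cell receptor, of antigen presentation and of lymphocyte homing are largely of this form.

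The promoter sequences that show both ends of the group are given first, as the 250 bases upstream of the TSS on mm9, read 5′ to 3′ on the strand of the gene. Cd37, Pou2f2, Fcrl1, Cd72, Cd180 and Cr2 are the B cell surface and transcription factor genes of highest score whose upstream bases hold one of the searched words. Capitals mark the Ets core GGAAGT, the PU.1 site GAGGAAGT that contains it, the octamer core ATGCAAA and the TATA box TATAAA, on either strand. In Cxcr4, shown as the highest-scoring member with a TATA box 20 to 40 bp upstream, capitals mark the TATA box alone. In Hist4h4, the member with the highest score and chosen for that reason after the values were seen, capitals mark each CG dinucleotide.
Cd37 (chr7:52494486-52494735, minus strand): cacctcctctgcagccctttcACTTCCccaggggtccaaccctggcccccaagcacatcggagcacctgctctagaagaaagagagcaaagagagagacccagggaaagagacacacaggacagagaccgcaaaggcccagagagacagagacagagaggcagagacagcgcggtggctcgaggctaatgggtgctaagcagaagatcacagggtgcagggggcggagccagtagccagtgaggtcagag
Pou2f2 (chr7:25917508-25917757, minus strand): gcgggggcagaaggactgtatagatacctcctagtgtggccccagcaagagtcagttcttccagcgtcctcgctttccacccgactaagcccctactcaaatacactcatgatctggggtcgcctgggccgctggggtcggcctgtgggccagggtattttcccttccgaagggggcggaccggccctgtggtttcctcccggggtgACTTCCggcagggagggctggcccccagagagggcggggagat
Fcrl1 (chr3:87180059-87180308, plus strand): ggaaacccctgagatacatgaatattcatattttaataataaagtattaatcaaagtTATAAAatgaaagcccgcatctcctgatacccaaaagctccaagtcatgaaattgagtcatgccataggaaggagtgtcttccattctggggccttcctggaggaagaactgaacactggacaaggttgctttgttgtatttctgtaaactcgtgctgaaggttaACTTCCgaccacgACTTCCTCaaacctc
Cd72 (chr4:43467501-43467750, minus strand): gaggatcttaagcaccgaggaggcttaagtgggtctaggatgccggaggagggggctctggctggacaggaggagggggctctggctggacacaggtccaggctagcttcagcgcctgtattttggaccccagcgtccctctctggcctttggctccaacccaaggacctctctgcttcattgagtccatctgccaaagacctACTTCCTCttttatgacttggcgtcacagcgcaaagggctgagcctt
Cd180 (chr13:103483388-103483637, plus strand): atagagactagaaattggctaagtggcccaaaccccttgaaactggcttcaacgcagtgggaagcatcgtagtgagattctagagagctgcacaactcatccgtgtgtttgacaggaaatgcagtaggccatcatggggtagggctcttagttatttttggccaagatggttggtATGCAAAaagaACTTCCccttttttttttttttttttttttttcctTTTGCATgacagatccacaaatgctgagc
Cr2 (chr1:197002910-197003159, minus strand): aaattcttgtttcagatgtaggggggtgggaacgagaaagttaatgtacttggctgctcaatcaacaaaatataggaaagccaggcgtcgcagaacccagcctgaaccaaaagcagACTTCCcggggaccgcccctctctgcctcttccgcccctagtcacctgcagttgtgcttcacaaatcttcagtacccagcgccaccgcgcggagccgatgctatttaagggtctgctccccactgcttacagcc
Cxcr4 (chr1:130488871-130489120, minus strand): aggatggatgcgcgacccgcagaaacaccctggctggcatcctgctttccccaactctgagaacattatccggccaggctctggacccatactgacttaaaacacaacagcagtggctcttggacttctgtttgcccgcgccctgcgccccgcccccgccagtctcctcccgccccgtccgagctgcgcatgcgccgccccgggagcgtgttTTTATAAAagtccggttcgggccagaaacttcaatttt
Hist4h4 (chr6:136752901-136753150, minus strand): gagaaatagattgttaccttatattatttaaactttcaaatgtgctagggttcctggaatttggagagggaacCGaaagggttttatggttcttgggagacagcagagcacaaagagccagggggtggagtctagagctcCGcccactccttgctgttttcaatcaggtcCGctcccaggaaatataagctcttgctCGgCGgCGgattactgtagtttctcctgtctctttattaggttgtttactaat
Fcrl1 and Cd72, both inhibitory or regulatory surface receptors of B cells, held the PU.1 site 15 to 8 bp and 47 to 40 bp upstream of the TSS. Cd180, a Toll-like receptor relative, held the octamer core at 75 to 69 bp and again, on the other strand, at 29 to 23 bp. In Cxcr4, the receptor for the chemokine Cxcl12, overlapping TATA words lay 38 to 31 bp upstream. These matches are of letters only, and no factor was measured.

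A DHS covered 3151 of 12979 CpG-poor TSSs, or 24.3% (Wilson interval 23.5 to 25.02). At CpG-rich promoters it was 5694 of 8439, or 67.5%, and over all protein-coding promoters 41.3%. Coverage was far from even among CpG-poor promoters. It was 2.75% where the CpG ratio was under 0.1, 4.14% from 0.1 to 0.2 and 9.01% from 0.2 to 0.3. It then rose to 16.7%, 31.6% and 53.2% in the next 3 steps of 0.1. The intervals of these neighbouring steps did not overlap, apart from those of the 2 lowest.

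**Figure D1:**
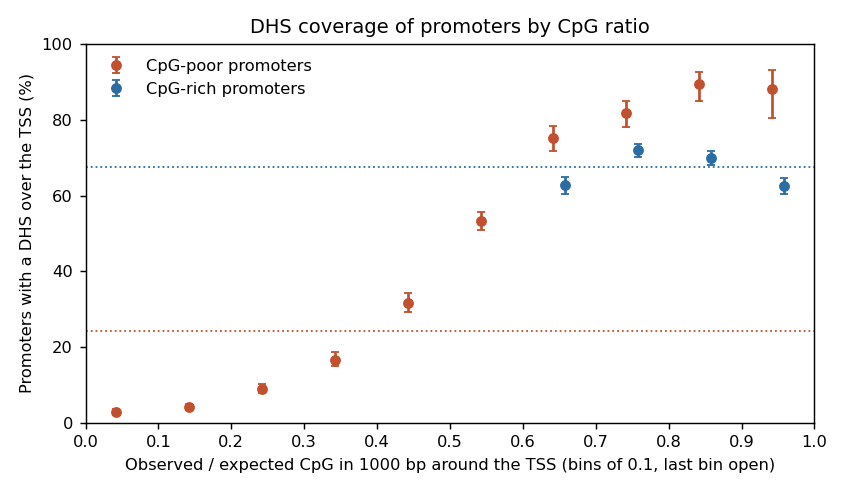
Share of promoters with a DHS over the TSS (vertical axis, percent) in steps of 0.1 of the observed to expected CpG ratio (horizontal axis), for CpG-poor and CpG-rich promoters. Bars are 95% Wilson intervals and dotted lines are the shares of each whole class, 24.3% and 67.5%; coverage of CpG-poor promoters climbs from 2.75% in the lowest step to 53.2% just under a ratio of 0.6.

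The reason for which a promoter counted as CpG-poor separated the group further. Promoters that failed both criteria were covered in 12.1% of 9165 cases, and those that failed the CpG ratio alone in 35.9% of 2306. Promoters that failed only the GC criterion, and so had a CpG ratio of 0.6 or more in a stretch of lower GC content, were covered in 80.6% of 1508 (78.6 to 82.6). That share was above the 67.5% of CpG-rich promoters. It stood level with the 80.3% of CpG-rich promoters whose GC content was 55 to 60%, while CpG-rich promoters of 70% GC or more were covered in 34.2%. Counting any DHS within 500 bp of the TSS, the 3 values became 88.1% for failure of GC alone, 88.4% for CpG-rich promoters of 55 to 60% GC and 75.6% for those of 70% or more. CpG-rich promoters without a DHS over the TSS often had one close by, since 48.3% of 2745 had a DHS within 500 bp. Among the 9828 uncovered CpG-poor promoters only 6.64% did.

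The CpG ratio was therefore used to describe the members in 3 tiers, chosen after the data were seen. The lowest tier, with a ratio under 0.3, held 6890 promoters, of which 372 were covered (5.40%, 4.89 to 5.96). The middle tier, from 0.3 to 0.6, was covered in 34.1% of 4581, and the tier from 0.6 upward is the one that failed GC alone. Members came mostly from the upper 2 tiers. By the mean ratio of the promoters they covered, 360 DHS fell in the lowest tier, 1356 in the middle and 958 in the highest. The median member promoter had 53.1% GC and a CpG ratio of 0.56, against 47.2% and 0.22 for CpG-poor promoters without a DHS.

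Repeated sequence moved with coverage. Of uncovered CpG-poor promoters, 12.8% had 50% or more of their 31-base words elsewhere in the assembly, against 1.11% of covered ones. Coverage was 31.8% of the 5571 promoters with no repeated word and 2.70% of the 1295 with 50% or more. In the lowest tier it was 5.40% overall and 7.73% of the 2277 promoters with no repeated word. How the authors treated reads that map to several places is not given for this library, and the part of mappability in these shares was not tested.

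Members had higher scores and greater widths than the list as a whole. Part of this is set by their choice, since a wide peak covers a given TSS more readily and score rose with width over all DHS (Spearman's rho 0.72, a description across 47542 DHS of 1 library). Their median score, the value of the MACS peak caller on a scale that is not stated, was 82.15 (79.98 to 85.18), with quartiles of 48.2 and 126.8. The median of all DHS was 32.65, and 85.0% of members lay above it. DHS over CpG-rich one-way promoters scored higher still, with a median of 112.9 (110.95 to 115.88), and 41.4% of them were in the top decile of the list against 24.5% of members. The median width was 1329 bp (1311 to 1351) for members, 1534 bp at CpG-rich promoters and 760 bp for the whole list. The gap in score was also present among DHS of like width. Among the narrowest DHS of both classes, up to 1013 bp, the medians were 39.9 and 73.3, and among the widest, from 1985 bp, they were 137.6 and 156.1.

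The score followed the CpG ratio while the width hardly did. Median scores were 57.0 (53.4 to 63.7) in the lowest tier, 73.6 (69.4 to 78.3) in the middle tier and 101.6 (97.5 to 104.8) in the highest, with intervals that did not overlap. Median widths were 1302.5, 1315.5 and 1358.5 bp, and the intervals of all 3 overlapped. Across the 2674 members Spearman's rho of score and ratio was 0.28, and that of width and ratio 0.03. All members share 1 library, so these are descriptions. The lowest tier was also the most spread in width, with quartiles at 895.25 and 1934.75 bp against 1086.5 and 1659 bp in the highest.

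**Figure D2:**
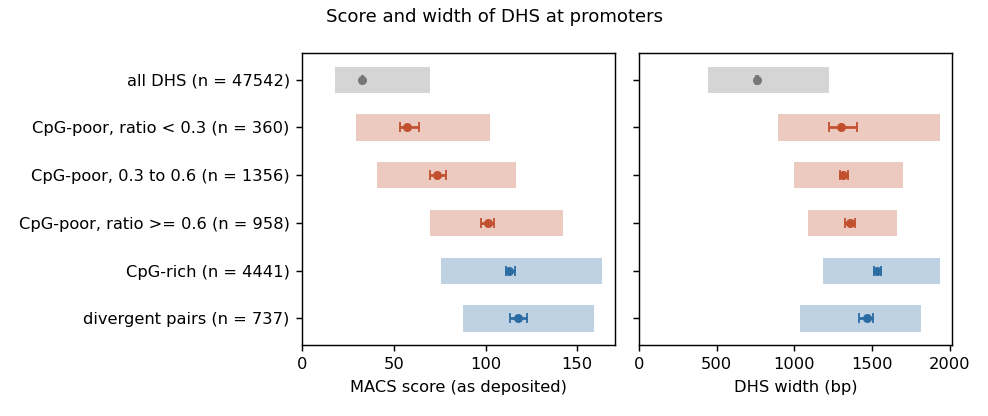
MACS score (left, as deposited) and width in bp (right) of DHS in the whole list, in the 3 tiers of members, over CpG-rich one-way promoters and at divergent pairs. Points are medians with 95% order-statistic intervals and bars span the quartiles; the score rises over the tiers from 57.0 to 101.6, while the width stays between 1302.5 and 1358.5 bp.

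DHS over CpG-poor promoters were centred downstream of the start. For the 2601 members over a single TSS the centre lay a median of 108 bp downstream (98 to 120), and in 69.3% it was on the downstream side. At CpG-rich promoters the median was 91 bp (82 to 101), so that the intervals of both classes met, but the share centred downstream was lower there, at 64.4% (63.0 to 65.8) against 67.5 to 71.1 for members. In 55.9% of members the centre was within 200 bp of the TSS. Centres more than 500 bp away made up 12.4% of members, with 21.2% (17.3 to 25.7) in the lowest tier and 8.52% (6.88 to 10.5) in the highest. The centre of Cd74, which encodes the invariant chain of class II MHC, was 2314 bp downstream in a DHS of 6573 bp. That of H2-Eb1, a class II beta chain, was 1132 bp downstream, and the DHS (chr17:34442779-34445141) began only just upstream of its TSS.

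Many members reached into CpG-rich sequence or had other DHS near them. In 33.9% the DHS held a window of 1000 bp that met both CpG criteria, and in 12.8% (11.6 to 14.1) it covered an annotated CpG-rich start of another transcript. Both shares rose over the tiers, the first from 5.56% to 29.3% and 51.0%, the second from 2.22% to 10.7% and 19.7%. Another DHS lay within 10 kb of 65.7% of members (63.8 to 67.4), much as at CpG-rich promoters, where it was 66.5%, and less than for all DHS, at 78.8%. The lowest tier stood apart, with 85.0% (80.9 to 88.3), against 66.4% in the middle tier and 57.3% in the highest. DHS at promoters with few CpG thus had neighbours more often than those of the other tiers, also within 2 kb, where the shares were 56.1%, 34.8% and 26.5%. Within 2 kb the share was 54.3% for all DHS, near that of the lowest tier, and 39.6% at CpG-rich promoters.

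Genes of B cells and of antigen presentation were examined next, from lists of general knowledge. The lists were chosen with earlier results of these data known, so the contrasts support nothing by themselves. The CpG-poor genes of 4 lists, for B cell surface receptors, B cell receptor signalling, B cell transcription factors and MHC with antigen presentation, had a DHS over the TSS in 54 of 63 cases (85.7%, exact interval 74.6 to 93.3), against the 24.3% of all CpG-poor promoters. In the lowest tier, where the background was 5.40%, it was 32 of 38 (84.2%, 68.7 to 94.0). The CpG-poor genes of 4 lists for T cells, myeloid and NK cells, the erythroid and platelet lineage and other tissues had one in 7 of 99 (7.07%, 2.89 to 14.0), and in 3 of 74 in the lowest tier (4.05%, 0.844 to 11.4). Those 38 genes of the B cell and MHC lists are among the 63, and the lists differed there, with 14 of 14 surface receptor, 9 of 11 MHC, 7 of 9 signalling and 2 of 4 transcription factor genes covered. The 54 DHS of the 4 B cell and MHC lists had a median score of 138.3, and 39 of them exceeded the member median.

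**Figure D3:**
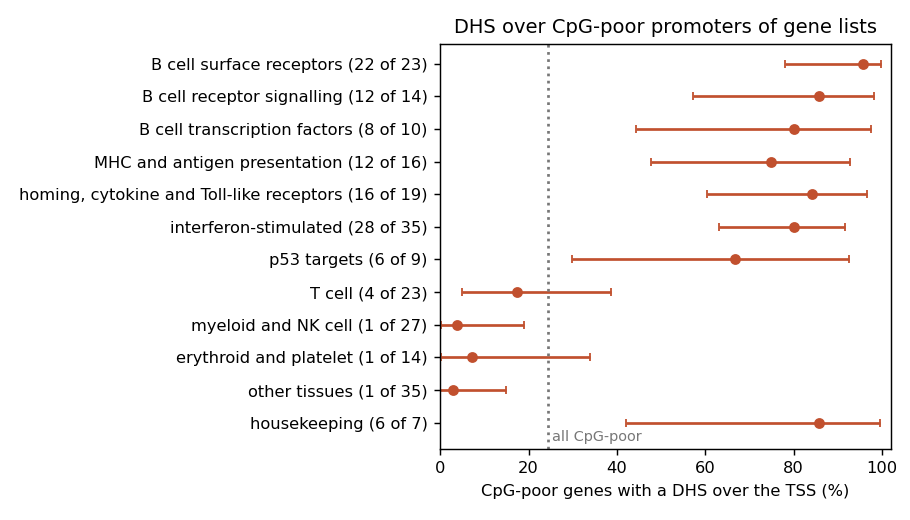
Share of the CpG-poor genes of each list with a DHS over the TSS (horizontal axis, percent), with the counts beside each name. Bars are exact 95% intervals and the dotted line is the 24.3% of all CpG-poor promoters; the B cell, MHC, homing and interferon lists lie at 75% or above and the lists of other cell types at 17.4% or below.

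Among surface receptors, 22 of 23 CpG-poor genes had a DHS, and all 14 of the lowest tier. Scores ran from 40.7 to 294 with a median of 116.65, and every one was above the median of the list. The highest was at Cd37, a tetraspanin of B cells, with 294. Fcrl1, an Fc receptor-like protein, had 237 and Ms4a1, which encodes the CD20 antigen, had 216 over a DHS of 4353 bp (chr19:11337633-11341985). The signalling chains of the B cell receptor, Cd79a and Cd79b, had 107.5 and 63.6, and the inhibitory receptor Cd22 stood lower, at 40.7. Cd72 had 157.9, Cd180 150.2, the complement receptor Cr2 143.4, Ly86, the partner of Cd180, 139.0 and the costimulatory receptor Cd40 137.6. Fcrla, Cxcr5, which guides cells into follicles, Cd55 and Fcgr2b, the inhibitory Fc receptor, lay between 114 and 133. Only Tnfrsf13b, the TACI receptor, had no DHS over the TSS of its gene record, and it had one within 500 bp.

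In receptor signalling 12 of 14 genes were covered, with a median of 114.9. Dapp1, an adaptor that binds phosphoinositides, had the highest score at 332, followed by the exchange factor Vav1 at 239, the adaptor Pik3ap1 at 231, the adaptor Blnk at 182 and the Src kinase substrate Hcls1 at 181. The phosphatase gene Inpp5d and the scaffold Bank1 had 116 and 113.7, the kinases Prkcb and Blk 112.0 and 110.3, the kinase subunit Pik3cd 81.4 and the exchange factor Rasgrp3 45.9. Lat2 and Ptpn6 had none, Lat2 with one within 500 bp and Ptpn6 with one within 5 kb.

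Of 10 CpG-poor transcription factor genes 8 were covered. The DHS at Pax5, the factor that holds B cell identity, was the widest of all members at 6909 bp (chr4:44720870-44727778), with a score of 167 and its centre 6 bp upstream of the TSS. Pou2f2, which encodes Oct2, had 288 over 5238 bp, and its coactivator Pou2af1 had 214 over 3783 bp. Spib, an Ets factor close to PU.1, had 149, the early B cell factor Ebf1 142 and Irf4 129.7. Ikzf1, which encodes Ikaros, had 51.4 over 534 bp, and Ets1 had 11.4 over 349 bp. These were narrow sites, and the Ets1 score was at percentile 8.10 of the whole list. Sfpi1, the gene of PU.1, had a DHS within 500 bp but not over its TSS, and Mef2c had none within 5 kb but one at another annotated start.

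The MHC genes had the highest median score of the 12 lists, at 200.9 over 12 members of 16 CpG-poor genes. The class II chains H2-Eb1, H2-Aa and H2-Ab1 had 356, 291 and 156, Cd74 had 332 and H2-Eb2 64.5. The class II peptide editors H2-Ob, H2-DMb2, H2-Oa and H2-DMb1 had 185, 175, 148 and 73.8. In class I presentation B2m had 253, H2-D1 247 and the immunoproteasome subunit Psmb8 217. Ciita, the master regulator of class II genes, H2-DMa, Tap2 and H2-T23 lacked a DHS over the TSS, and all but Ciita had one within 500 bp. Genes of the H2 family share sequence, and 13 of 29 CpG-poor H2 genes were covered in all.

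Homing, cytokine and Toll-like receptors were covered in 16 of 19 cases, and in 7 of 10 in the lowest tier. Tlr9, the sensor of unmethylated CpG DNA, had 239, Cxcr4 234, the integrin chain Itga4 216, Tlr6 189, Tnfrsf1b 164, S1pr4 143 and Il10ra 137. Tlr4 had 104.7, Ccr7, which leads lymphocytes into lymph nodes, 93.4, the egress receptor S1pr1 91.5 and the integrin chain Itgal 60.8. Selplg, Gpr183 and Itgb7 had no DHS over the TSS, and each had one within 500 bp.

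Interferon-stimulated genes were covered in 28 of 35 cases (80.0%, 63.1 to 91.6), in cells that had only a mock treatment, and 27 of the DHS were members. Their median score of 77.3 was close to the member median. Irf7, a factor of the interferon response, had 242, Ly6e 206, Parp9 162, Ifit2 156, the GTPase gene Irgm1 143.7, Samhd1 132, Zbp1 109.6 and the RNA sensor Ddx58 106. Oasl1 had 98.5, the antiviral surface protein Bst2 96.3, Parp14 92.6 and Usp18 86.7. With peaks at or above the median score of the list alone, 22 of 35 remained (62.9%), among the lists named so far the largest loss in genes. Mx1 and Mx2, with CpG ratios of 0.06, were both covered, at 29.2 and 65.1.

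Of 9 CpG-poor p53 target genes 6 were covered, at 203 for the cyclin gene Ccng1, 124 for Aen, 46.7 for Dcxr, 43.7 for Fas, 34.0 for Pltp and 24.3 for Tnfrsf10b. The 3 without a DHS over the TSS, Ak1, Gdf15 and Cdkn1a, were the 3 with ratios under 0.3. Within 500 bp of the TSS the count stayed at 6. These counts refer to the start of the gene record alone, so a DHS at another start of the same gene is not included. Most p53 target genes of the list, 21 of 30, had CpG-rich promoters and are outside this group. Of 7 CpG-poor housekeeping genes 6 were covered, among them Ywhaz at 311, Gapdh at 110, Gusb at 67.3 and Eef1a1 at 61.4. Ldha had none.

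The lists of other cell types gave few and mostly weak members. In the lowest tier, which held 74 of their 99 CpG-poor genes, 3 were covered (4.05%), near the 5.40% of all promoters of that tier. Of 23 T cell genes 4 were covered, at 82.2 for the adhesion receptor Cd2, 25.3 for the factor Gata3, 17.2 for the kinase Lck and 12.8 for Ubash3a. The genes of the T cell receptor complex, Cd3e, Cd3d, Cd3g and Cd247, and the coreceptors Cd4 and Cd8a had none. Cd14 at 51.1 was the 1 of 27 myeloid and NK genes, and Gfap at 18.9 the 1 of 35 genes of other tissues. Of 14 erythroid and platelet genes 1 was covered, below the median score of the list. Above the median score of the list only Cd2 and Cd14 of the 7 covered genes of these 4 lists remained.

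**Figure D4:**
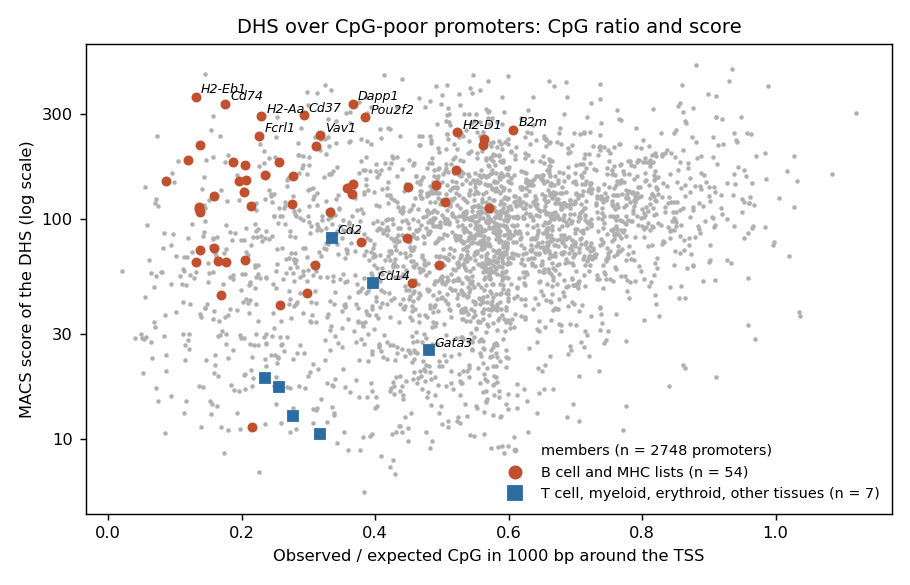
Score of the DHS (vertical axis, log scale, as deposited) against the CpG ratio of the promoter (horizontal axis) for 2748 member promoters, with 54 genes of the B cell and MHC lists and 7 of the lists of other cell types marked and some named. Genes of the B cell and MHC lists stand high at low ratios, up to 356 for H2-Eb1, while 6 of the 7 marked genes of other cell types lie below the member median of 82.15.

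Gene families with a shared symbol also differed, with 24.3% of all CpG-poor promoters as the background. No DHS covered any of 1106 CpG-poor olfactory receptor genes (Olfr), which allows a share of up to 0.271%, nor any of 202 Vmn1r and 124 Vmn2r pheromone receptor genes, where up to 1.49% and 2.42% are allowed. A median of 10.5% of 31-base words was repeated at Olfr promoters and over 31.5% at both Vmn families, and the part of mappability in these counts was not tested. None of 46 Krtap, 41 Defb and 26 Klr genes was covered, 1 of 51 keratin genes, 4 of 90 Cyp genes and 5 of 57 Serpin genes. Above the background, 121 of 229 zinc finger genes (Zfp) were covered (52.8%, 46.2 to 59.4), with Zfp51 highest at 390, and 6 of 8 Gimap genes, GTPases of lymphocytes, from 57.1 for Gimap1 and Gimap7 to 195.5 for Gimap5. Of families added after the data were seen, 32 of 38 CpG-poor histone genes (84.2%, 68.7 to 94.0) and 5 of 8 Slfn genes were covered. Families were not matched for CpG content, and promoters of the highest tier at large were covered in 80.6%, close to the share of the histone genes. The DHS of the 32 covered histone genes, of which 24 were under members, had a median score of 193.6, but a median of 25.1% repeated words at histone promoters makes the split of reads between copies uncertain.

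Sequence words were then counted in the window from 250 bp upstream to 50 bp downstream of the TSS, on both strands. In the lowest tier, 363 promoters under members were set beside 6518 without a DHS. The Ets core was in 42.7% (37.7 to 47.8) against 22.3%, and the PU.1 site, which contains it, in 13.8% (10.6 to 17.7) against 4.25%. The NF-kB word GGGANTTCC was in 4.96% against 1.07%, the GC box GGGCGG in 20.7% against 7.04% and the CTCF core AGGTGGC in 8.26% against 4.79%. The E box CAGCTG (22.0% against 16.6%), the interferon response word GAAANNGAA (16.5% against 11.8%) and the composite Ets-IRF word GGAANNGAA (13.2% against 8.93%) were also more frequent at covered promoters, of which the E box and the composite word did not stay apart at matched GC. Words that went the other way were the TATA box, with 12.1% against 25.9%, the same box at 20 to 40 bp upstream on the strand of the gene, with 2.48% against 5.39%, the CCAAT box, with 29.8% against 38.4%, and the HNF1 word GTTAATNA, with 1.38% against 4.11%. None of these pairs of intervals overlapped. The octamer core was in 5.51% against 6.18%, with intervals that overlapped. Over all protein-coding promoters the Ets core was in 24.3%, the PU.1 site in 3.10%, the TATA box in 13.5% and the GC box in 43.7%.

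Covered promoters of the lowest tier also had more GC in this window, with a median of 51.0% against 45.7%. A comparison between promoters of 45 to 55% GC in the 1000 bp around the TSS was added after the data were seen. It did not match the GC of the word window itself. In it the Ets core was in 39.8% of 244 against 26.2% of 2752 and the PU.1 site in 11.1% against 4.40%. The NF-kB word was in 4.10% against 1.27%, the interferon response word in 18.03% against 9.59% and the GC box in 21.3% against 9.96%. All of these were without overlap of intervals. The TATA box was in 8.20% against 16.9%, and at 20 to 40 bp upstream in 2.05% against 5.70%, also without overlap. For 5 words the intervals then overlapped. They were the CTCF core at 9.43% against 7.19%, the composite Ets-IRF word at 13.9% against 9.81%, the CCAAT box at 30.7% against 36.8%, the HNF1 word at 1.23% against 3.198%, and the E box CAGCTG, which turned direction at 21.3% against 22.5%. Leaving out promoters with a repeated word as well, the PU.1 site was in 12.8% of 109 against 3.49% of 1031, still without overlap. The same held for the interferon word, in 17.4% against 7.47%, and the GC box, in 25.7% against 12.1%. Intervals overlapped at this smaller number of promoters for the Ets core (34.9% against 24.8%), the NF-kB word (3.67% against 1.36%) and the TATA box (7.34% against 14.5%). They also overlapped for the TATA box at 20 to 40 bp upstream (0.917% against 5.53%).

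The Ets core and the PU.1 site were concentrated close to the start. In steps of 50 bp, the share of covered promoters with an Ets core rose from 3.86% at 250 to 201 bp upstream to 14.3% in the last 50 bp before the TSS. At uncovered promoters the same steps held 3.33% and 4.68%. The PU.1 site rose from 0.551% to 4.13% at covered promoters and from 0.261% to 0.660% at uncovered ones. In the first 50 bp from the TSS on, it was in 3.31% and 1.64%, the highest step for uncovered promoters. The sequences of Fcrl1 and Cd72 above carry their PU.1 sites in the last 50 bp before the TSS.

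**Figure D5:**
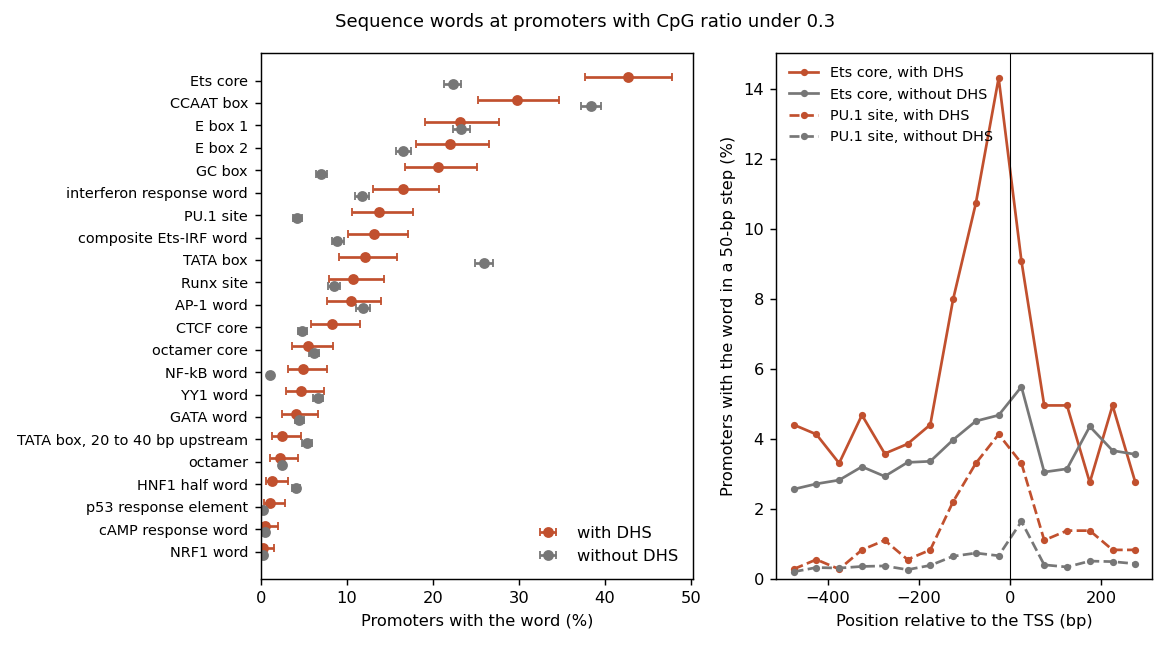
Left, share of promoters with a CpG ratio under 0.3 that hold each word, with or without a DHS over the TSS, with 95% Wilson intervals (E box 1 is CAGGTG and E box 2 is CAGCTG). Right, share of the same promoters with an Ets core or a PU.1 site in steps of 50 bp along the promoter; the Ets core reaches 14.3% just before the TSS at covered promoters and 4.68% at uncovered ones.

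Over all 2748 member promoters the words of CpG-rich promoters came in. The GC box was in 44.6%, against 15.2% of CpG-poor promoters without a DHS and 74.8% of covered CpG-rich promoters. The NRF1 word GCGCATGC was in 3.68% against 0.926%, and the cAMP response word TGACGTCA in 3.17% against 0.824%. Both of these words and the GC box contain CpG, and their intervals depended on the tier. In the middle tier the GC box was in 50.4% of covered promoters against 30.3% and the cAMP response word in 2.74% against 1.23%, with intervals apart, while the intervals of the NRF1 word overlapped. In the highest tier the intervals of all 3 overlapped. The HNF1 word turned direction in the highest tier, with 2.90% of covered promoters against 0.342% and intervals apart. The PU.1 site was in 2.30% of member promoters of the highest tier and 2.40% of uncovered ones. A TATA box at 20 to 40 bp was in 0.946% of member promoters, that is 26 genes. This was less than the 4.35% of CpG-poor promoters without a DHS and the 2.42% of all protein-coding promoters. Besides Cxcr4 the 26 genes included 4 histone genes, the light chain gene Iglc2, the cytokine gene Tnf at 160, the activation marker Cd69 at 65.2 and the low-affinity IgE receptor Fcer2a at 72.1. The p53 response element, searched as adjacent decamers with up to 2 mismatches, was in 0.291% of member promoters and 0.366% of uncovered ones. In the lowest tier it was in 1.10% of member promoters and 0.29% of uncovered ones, that is 4 and 19 promoters, with intervals that overlapped.

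The 15 members of highest score had mixed functions. Hist4h4, a histone H4 gene, had 496.2 (chr6:136751662-136753766), followed by the arrestin-like gene Arrdc3 at 479.5, the uncharacterised A830007P12Rik at 453.3, Nfkbid, a nuclear member of the inhibitors of NF-kB, at 449.1, the NFAT family factor Nfatc3 at 446.45, the small GTPase gene Rhog at 443.4 and Apbb1ip, an adaptor in integrin activation, at 431.5. Tmem194b, the autophagy gene Gabarap, 1700064H15Rik, the RNA polymerase III factor gene Gtf3c6, Paip2, the mitochondrial carrier gene Slc25a38, Nfkbil1 and Mterfd3 followed, down to 402.9. Of these 15, A830007P12Rik alone belonged to the lowest tier, and its DHS was centred 1598 bp downstream. The DHS of 10 of the 15 held a CpG-rich window, and those of Arrdc3, Nfkbid, Rhog, Tmem194b and Slc25a38 also covered a CpG-rich transcript start.

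The 15 members of highest score in the lowest tier alone, a list added after the data were seen, had scores from 234.4 upward. After A830007P12Rik and Unc45a at 376.4 came H2-Eb1, Cd74, Dock2, a regulator of lymphocyte migration, at 329.4, Cd37, Pik3ip1 at 293.8, H2-Aa, Tnfaip8l2 at 289.4, Madd at 259.0, Ptprcap, a partner of CD45, at 253.2, Tlr9, Fcrl1, Gm5431 at 236.6, where 27.5% of 31-base words were repeated, and AI467606 at 234.4. The DHS of Unc45a, Pik3ip1 and Madd each covered a CpG-rich transcript start and held a CpG-rich window, and that of A830007P12Rik held such a window. Besides Pax5 and Cd74 the widest members were Bzrap1 at 6201 bp, the homeobox repressor gene Tgif1 at 6116 bp and Bcl6, the factor of germinal centres, at 5912 bp. The lowest scores were those of Ncan at 5.75, Ppt2 at 6.96, Apobr at 7.10, 1700048O20Rik at 7.5 and 1810014F10Rik at 8.06, all with widths from 334 to 677 bp.

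The thresholds of the rule cut through a continuous range. Just inside the GC limit, at 54.9%, lay Ttll1, Snapc1 and Chchd3, with scores of 33.4, 103.4 and 106.5. Just outside, at 55%, were 1110001A16Rik, 1700041G16Rik and B4galt7, with 82.7, 399.2 and 42.2. Just under the CpG ratio of 0.6 lay Ctsa, Thoc6 and Myg1 at 147.1, 103.3 and 43.6, and just past it Mbp, Fut4 and Sord at 98.4, 13.2 and 56.6.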

How the data were processed

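DNase I hypersensitivity was profiled in splenic B cells with 1 DNaseI and 1 input library. The authors deposited 1 peak list with mm9 positions and a score per peak from the MACS caller. The scale of the score, the settings of the caller and its use of the input library are not stated for these peaks, while the study's methods give BWA with default settings and a MACS p-value limit for its ChIP-seq data. BWA 0.6.2 and SAMtools are named in the submitters' processing notes, with no role or order. The list holds no read counts, so depth is unknown, and no test or p-value is given.

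Peaks were joined to the gene records of GENCODE M1 on the mm9 assembly (NCBI build 37), on chromosomes 1 to 19. On 1 chromosome the list ran past the end of the sequence. GC content and the CpG ratio were computed from the assembly. Divergent TSSs were a minus-strand start at or upstream of a plus-strand start within 1 kb. DHS over opposite-strand starts that overlap at their 5′ ends or lie further apart stayed in the group, and 46 members were of this kind. CpG-rich one-way DHS (4441) and DHS at divergent pairs (737) were defined likewise. For repeats, every 31-base word of a promoter was looked up in the whole assembly, and words found at more than 1 place were counted as repeated. Shares carry Wilson or, for lists, exact binomial intervals, and medians carry order-statistic intervals. A count of 0 allows a share of 3 divided by the number examined.

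The members, the 12 gene lists, 20 sequence words and 12 families were chosen with earlier results of these data known, and support nothing by themselves. Btk, P2ry10, Cd40lg, Ahsp and Amelx of the lists were not matched on these chromosomes. Named are the 15 members of highest score, the 5 widest, the 5 of lowest score, up to 12 covered CpG-poor genes per list with those uncovered where 5 or fewer, and the 3 nearest each side of each threshold. Sequence is printed upstream of the TSS alone, and none for the 67 members on chromosome 18. Cd79a, Cd79b, Cd22, Mx1, Mx2, the T cell receptor genes and family members were named as markers or after their values were seen, as were the alternatives called added. Some listed genes are not reported here by name. The scripts were tested on simulated data. Python 3.11.15, pandas 2.3.3 and SciPy 1.17.1 were used.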

Additional observations from a re-analysis of the deposited data

Results flagged for a closer look

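Chromosome X lies outside the chromosomes on which members were chosen, and it carried signal of the same kind, which entered the report only as a portion of the whole list of DHS. There, 111 DHS covered CpG-poor promoters under the same rules, with a median score of 51.4. They are given because a DHS was called on a chromosome without members, above the 3 counts that a result of 0 would allow. A DHS covered 122 of 761 CpG-poor TSSs on X, or 16.03% (Wilson interval 13.6 to 18.8), while on chromosomes 1 to 19 the share was 15.7% at the lowest, on chromosome 14, and 31.6% at the highest, on chromosome 12. The difference between X and the other chromosomes was not tested, since there is 1 library.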

How the results depend on the processing

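No paired analysis was possible because there is 1 library and no result comes from a test. Causes of the changes below were not tested, except where the way an alternative was built shows one. Of 39 values under alternatives, 15 stayed within the interval of the value reported (or, for the count of members, within 1.5 times) and 24 did not. The share of CpG-poor promoters with a DHS, 24.3%, was 21.0% with peaks at or above the median score, 25.9% with the start of any protein-coding transcript, 29.3% with any DHS within 500 bp, 27.3% without Olfr, Vmn1r and Vmn2r genes, and 26.7% without promoters of 50% or more repeated words. The definition of CpG-poor moved more. With a window of 2000 bp the share was 36.6%, members numbered 5134, their median score was 96.6 and width 1413 bp, and 3.35% covered a CpG-rich transcript start, since more promoters then fall short of the criteria. With a CpG ratio under 0.4 the share was 7.50%, with 604 members, a median score of 61.97 and a width of 1305 bp. Without members over a CpG-rich transcript start the median score was 78.9, the width 1303 bp and the centre 93 bp downstream. Without those holding a CpG-rich window 1768 members remained, with 74.7, 1279 bp and 82 bp. The share with a neighbour was 34.7% within 2 kb, 92.8% within 50 kb, and 48.6% within 10 kb at the stricter score, where fewer DHS are left to be neighbours. Of 42 shares of words among members, 34 moved with the window. A wider window, from 500 bp upstream to 100 bp downstream, contains the first one, so its shares could only rise or stay equal. Uncovered promoters were not recounted, so the comparison with them was not examined under other windows. Of 24 list shares 7 moved. Each of the 4 B cell and MHC lists kept a higher share than each of the 4 lists of other cell types and tissues. This held with a DHS within 500 bp and with peaks at or above the median score. What limits all of this is the single library of unknown depth, so that an uncovered promoter cannot be told from one missed for lack of reads.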
